A study of Mus musculus with 6 samples.

Results

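The insulin-like growth factor (IGF) family was followed in messenger RNA from mouse aorta. The 9 genes were chosen by symbol: the ligands Igf1 and Igf2, the receptor Igf1r and the binding protein genes Igfbp2 to Igfbp7. All 9 are among the 22956 genes of the deposited table, and all 9 passed the low-count filter that left 16654 genes for testing. The samples are labelled smooth muscle cells of aorta from C57B6 mice, 30 weeks old, fed a western diet for 20 weeks. WT samples (3) have the genotype WT/mTmG/ Myh11ERT2, and knockout samples (3) have floxed miR-21 alleles with the same additions (miR-21fl/flmTmG/Myh11ERT2). Both groups therefore carry the mTmG colour reporter and an inducible Cre driven by the smooth muscle gene Myh11, so the microRNA miR-21 can be lost only in cells where that promoter has been active. No label says whether replicates are separate animals, whether samples were pooled or when Cre was induced, so p-values measure only the spread between these libraries, which may be technical. The microRNA itself was not analysed here, so the genotype labels could not be checked against it. The question addressed is whether messages of the IGF system differ between the WT and knockout samples labelled aortic smooth muscle cells.

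IGF1 and IGF2 are small secreted growth factors that act through the IGF1 receptor, a tyrosine kinase, which passes the signal through insulin receptor substrates to PI3-kinase, Akt and mTOR and through Shc to MAP kinase. Binding proteins hold the ligands in blood and matrix and set how much is free, and proteases release the ligands again. In the vessel wall IGF signalling is known for growth and survival of smooth muscle cells and for effects on the stability of atherosclerotic plaques.

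None of the 9 family members passed the threshold over all genes. The table was tested with edgeR's quasi-likelihood test, two-sided, with Benjamini-Hochberg adjustment over all 16654 genes and a threshold of 0.05. It called 0 of the 9 members, against a background of 0 genes (0%) over the whole table, whose smallest adjusted p was 0.217. DESeq2 called 75 genes, 0.488% of those it could test (0.41% higher and 0.0782% lower), and limma-voom with sample weights called 0. Neither tool called a member. At an unadjusted edgeR p under 0.05 stood 1 member, Igf1r on the higher side, beside 993 genes (5.96%) of the table. Members whose 3 knockout libraries all lay on the same side of all 3 WT libraries numbered 2, Igf1r above and Igfbp7 below, and over all genes 12.1% were separated in this way, 6.48% with the knockout above and 5.6% with it below. The median log2 fold change (knockout over WT) of the 9 members was -0.01, as against -0.0022 for all genes tested, and 4 of the 9 lay above 0.

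Letters that match the seed of miR-21 were searched in a chosen transcript of each of the 9 genes, and 3 of the 9 held the shorter match. The mature strand is shown first with its seed, bases 2 to 8, in capitals. It is followed by the 3 stretches of member 3′ untranslated regions (UTRs) that hold TAAGCT, the match to bases 2 to 7, in capitals.
mmu-miR-21a-5p: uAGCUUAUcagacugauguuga
Igf1r: aacagttcggtTAAGCTcaggagccctt
Igfbp2: ccagcggctgtTAAGCTgaacctccctt
Igfbp4: acctttgacttTAAGCTctcagtgtcag
The microRNA sequence is from RefSeq (GRCm38.p6), where it lies at chr11:86584120-86584141 on the minus strand. The UTR stretches are from GENCODE M21 transcripts (GRCm38, the assembly called mm10) and lie on the plus strand at chr7:68230069-68230096 for Igf1r, chr1:72852319-72852346 for Igfbp2 and chr11:99053110-99053137 for Igfbp4. ATAAGCT, the match to the whole seed, stood in the UTR of 0 of the 9 members, and in 0 of the other annotated coding transcripts of these genes. Those other transcripts were not searched for TAAGCT. Of 13016 UTRs of tested genes, 7.31% held ATAAGCT and 24.8% held TAAGCT, which is part of it, on the sense strand searched. Such a match is a description of the letters and not of binding. Of the 3 members with TAAGCT, the log2 fold changes were 0.21 for Igf1r, 0.03 for Igfbp2 and 0.37 for Igfbp4.

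Within the family, the messages differed in level by orders of magnitude, and the order was nearly the same in every library. Levels between genes are given as CPM per kilobase, which is CPM (counts scaled to library size with TMM factors) divided by the length of the gene's merged exons. Igfbp7 stood at 3383 ± 259 CPM per kilobase (SD, all 6 libraries). Igfbp2 followed at 78.1 ± 18.3, Igfbp4 at 47.4 ± 11.7 and Igfbp5 at 22.3 ± 5.07, all in CPM per kilobase. Igf1r (4.31 ± 0.431) and Igfbp6 (4.06 ± 1.72) lay together, and Igf1r was the higher of the pair in 3 of 6 libraries. The ligands came next, with Igf1 at 0.933 ± 0.521 and Igf2 at 0.518 ± 0.152 CPM per kilobase, Igf1 being above Igf2 in 4 of 6 libraries. Igfbp3 was lowest in 6 of 6 libraries, at 0.241 ± 0.0744. Igfbp2 lay above Igfbp4 in every library but knockout 2, where Igfbp4 was higher. With the longest transcript in place of merged exons Igf1r stood at 6.34 CPM per kilobase and Igfbp2 at 110.4. The order of the close pairs depended on this choice. Knockout 2 then had 76.1 for Igfbp2 and 69.3 for Igfbp4, so Igfbp2 was above in every library. Igf1r then lay below Igfbp6 in WT 3 only (5.93 against 6.20). Igf1 lay below Igf2 in knockout 2 only (0.613 against 0.931).

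**Figure D1:**
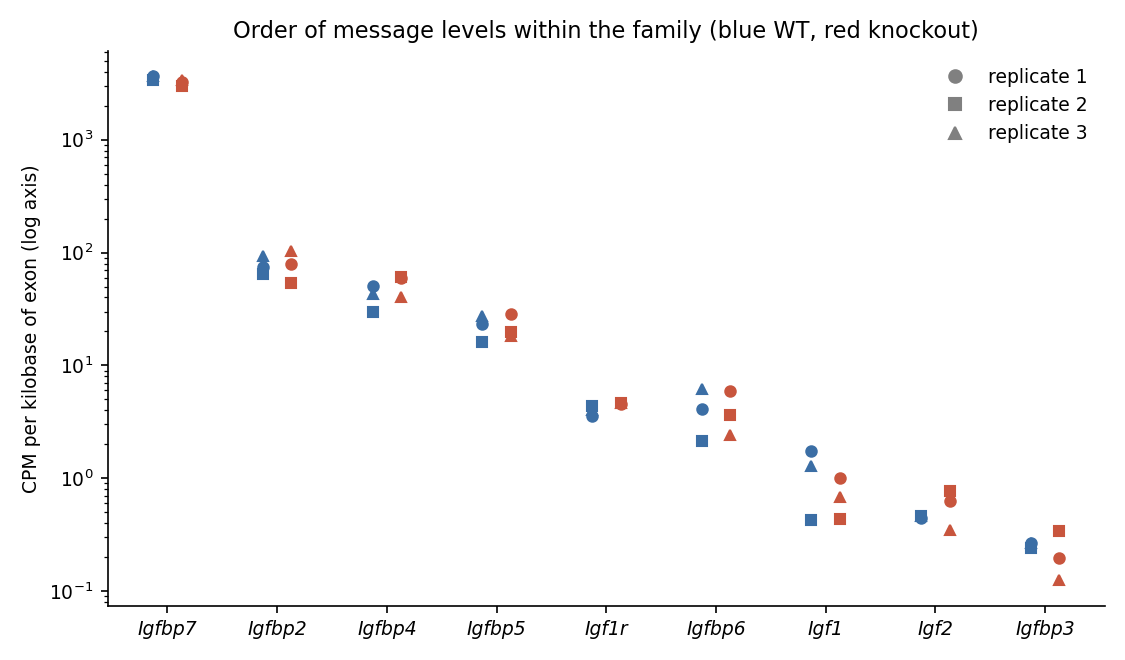
Level of each family message in CPM per kilobase of merged exons on a log axis, 1 point per library (blue WT, red knockout, shape by replicate number), genes ordered by their mean over 6 libraries. Igfbp7, at a mean of 3383, lies 43.3-fold above Igfbp2, while Igfbp2 and Igfbp4, Igf1r and Igfbp6, and Igf1 and Igf2, overlap.

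Igfbp7 made up nearly the whole binding protein message. Of the summed CPM per kilobase of the 6 binding protein genes, Igfbp7 took 96.0%, 96.8% and 95.5% in WT libraries 1, 2 and 3. The knockout libraries 1, 2 and 3 gave 94.95%, 95.6% and 95.3%, within or just below the WT range. Their mean of 95.3 ± 0.302% lay below the WT mean of 96.1 ± 0.65% (SD, n = 3 each), and the exact permutation test, two-sided, gave p = 0.2, where 0.1 is the smallest that 3 against 3 can give. Igfbp7 encodes a secreted, vessel-associated protein that shares the amino-terminal fold of the family and binds IGFs weakly compared with the classical binding proteins.

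The ligand messages were scarce and uneven between libraries. Igf1 (chromosome 10, 87858265 to 87937042, plus strand) encodes the main growth factor of the system, made by liver for the circulation and locally by mesenchymal cells and macrophages. Its level was 17.2, 4.25 and 12.8 CPM in WT 1, 2 and 3, and 10.1, 4.33 and 6.72 CPM in knockout 1, 2 and 3. WT 2 lay beside knockout 2 at the bottom, and the other WT libraries lay above all knockout libraries, so the groups overlapped. In bulk RNA such as this, fewer cells of a type and less RNA per cell cannot be told apart. The WT mean was 11.4 ± 6.61 CPM and the knockout mean 7.03 ± 2.88 CPM (SD, n = 3 each), and the log2 fold change was -0.71 ± 0.54 (SE), with a 95% interval from -2.02 to 0.61 (edgeR adjusted p = 0.872). Without WT 1 the difference was -0.30, without WT 2 it was -1.10, and without knockout 2 it was -0.46.

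Igf2 (chromosome 7, 142650766 to 142666816, minus strand) is the imprinted fetal growth factor, expressed from the paternal copy and low in most adult tissue. WT 1, 2 and 3 stood at 2.53, 2.65 and 2.64 CPM, and knockout 1, 2 and 3 at 3.59, 4.39 and 1.99 CPM. The WT libraries lay close together, while knockout 1 and 2 were above all of them and knockout 3 below all of them. Igf2 had a log2 fold change of 0.34 ± 0.29 (SE), with a 95% interval from -0.35 to 1.03 (edgeR adjusted p = 0.873). Without knockout 3 it was 0.61, without knockout 2 it was 0.09, and in limma-voom with sample weights it was 0.01. The library counts of Igf2 ran from 96 to 407, and the exact Poisson 95% interval of knockout 3, 1.68 to 2.34 CPM, lay below that of knockout 1, 3.01 to 4.26 CPM. These intervals cover counting error only. The antisense gene Igf2os overlaps Igf2, and the kit named in the labels is not stated to keep strand, but Igf2os had at most 3 counts in any library. The antisense gene Igf1os, which overlaps Igf1, was not analysed here.

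The receptor message was slightly higher in the knockout, without passing the threshold. Igf1r (chromosome 7, 67952827 to 68233668, plus strand) had 59.9, 73.7 and 67.6 CPM in WT 1, 2 and 3. In knockout 1, 2 and 3 it had 76.9, 78.1 and 77.7 CPM. Every knockout library was above every WT library, and the knockout libraries were nearly equal while the WT libraries were spread. The WT mean was 67.1 ± 6.95 CPM and the knockout mean 77.6 ± 0.61 CPM (SD, n = 3 each). For Igf1r the log2 fold change was 0.21 ± 0.08 (SE), with a 95% interval from 0.02 to 0.40 (edgeR unadjusted p = 0.0373, adjusted p = 0.830). Its sign was the same in all 13 alternative analyses. With 1 library left out, the unadjusted edgeR p of Igf1r exceeded 0.05 in 5 of 6 cases, and without WT 1 the log2 fold change was 0.13 (edgeR unadjusted p = 0.0750).

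**Figure D2:**
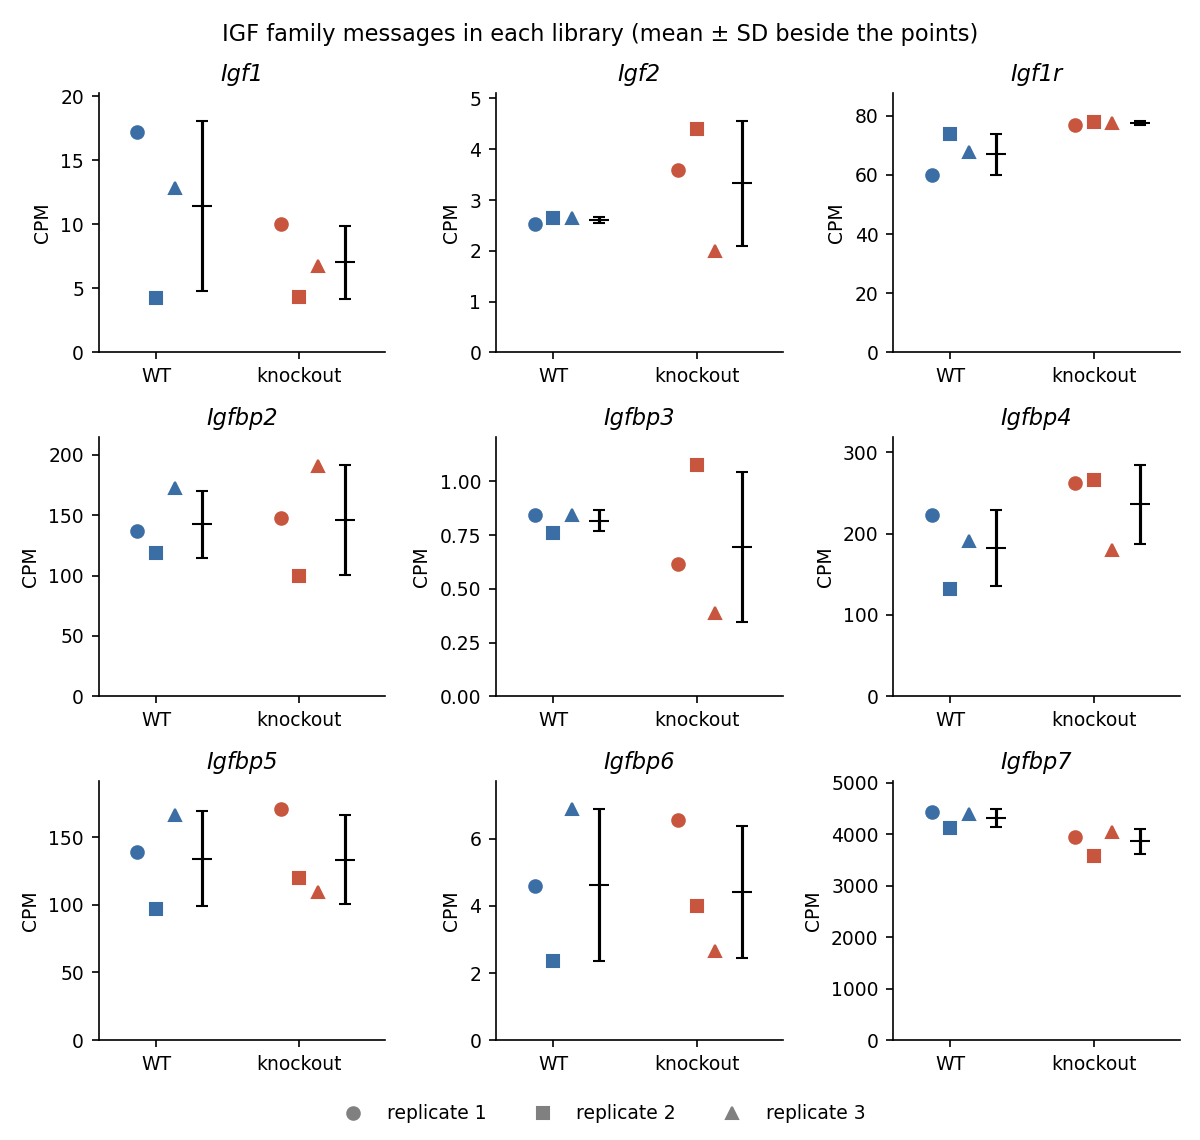
CPM of the 9 family messages in each library, blue for WT and red for knockout, with the replicate number as the shape of the point and the mean ± SD of 3 libraries in black. Igf1r is above and Igfbp7 below WT in every knockout library, by log2 fold changes of 0.21 and -0.16, and the groups of the other 7 genes overlap.

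Among the classical binding proteins, Igfbp4 had the largest log2 fold change on the higher side. Igfbp4 (chromosome 11, 99041244 to 99054392, plus strand) encodes a binding protein that keeps IGFs from the receptor until the protease PAPP-A cuts it. It had 223, 132 and 191 CPM in WT 1, 2 and 3, and 262, 266 and 180.1 CPM in knockout 1, 2 and 3. Knockout 1 and 2 lay above all WT libraries, and knockout 3 lay between WT 2 and WT 3. Its log2 fold change was 0.37 ± 0.23 (SE), with a 95% interval from -0.18 to 0.92 (edgeR adjusted p = 0.863). It was 0.18 without WT 2, the lowest library, and 0.54 without WT 1.

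Igfbp2 and Igfbp5 are neighbours on chromosome 1, pointing at each other with 5457 bases between their ends (Igfbp2 from 72824503 to 72852474, plus strand; Igfbp5 from 72857932 to 72874884, minus strand). Igfbp2 encodes a binding protein with an integrin-binding motif, and Igfbp5 one that binds to extracellular matrix. Igfbp2 had 137, 118 and 173 CPM in WT 1, 2 and 3 and 148, 99.5 and 191 CPM in knockout 1, 2 and 3. Replicate 3 was the highest and replicate 2 the lowest in both genotypes. Igfbp5 had 139, 96.6 and 166 CPM in WT 1, 2 and 3 and 171, 119.8 and 109 CPM in knockout 1, 2 and 3. Knockout 3, the highest library for Igfbp2, was the lowest knockout library for its neighbour. The log2 fold changes were 0.03 ± 0.25 for Igfbp2 and -0.01 ± 0.24 for Igfbp5 (SE), and their 95% intervals, -0.57 to 0.64 and -0.60 to 0.58, leave room for differences of either sign. The sign of Igfbp2 turned in 2 of 13 alternative analyses and that of Igfbp5 in 5 of 13.

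Igfbp6 and Igfbp3 were the least abundant binding protein messages. Igfbp6 (chromosome 15, 102144362 to 102149511, plus strand), whose product prefers IGF2, had 4.59, 2.36 and 6.90 CPM in WT 1, 2 and 3. Knockout 1, 2 and 3 had 6.57, 4.01 and 2.67 CPM of it, so that each group spanned nearly the whole range. Igfbp6 had a log2 fold change of -0.09 ± 0.46 (SE), and the value was 0.34 without WT 3, -0.50 without knockout 1. With limma-voom it was -0.70. Igfbp3 (chromosome 11, 7206086 to 7213923, minus strand) encodes the main IGF carrier of blood. It had 0.844, 0.761 and 0.844 CPM in WT 1, 2 and 3, and 0.617, 1.08 and 0.389 CPM in knockout 1, 2 and 3, from library counts of 23 to 130. The knockout libraries lay on both sides of the WT libraries. Its log2 fold change was -0.25 ± 0.39 (SE), with a 95% interval from -1.18 to 0.68, and a difference within that range was not detectable at this depth and number of libraries. It was -0.72 without knockout 2 and 0.05 without knockout 3.

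Igfbp7, the most abundant member, was slightly lower in the knockout without passing. Igfbp7 (chromosome 5, 77349240 to 77408041, minus strand) had 4438, 4116 and 4397 CPM in WT 1, 2 and 3, and 3954, 3584 and 4050.4 CPM in knockout 1, 2 and 3. Every knockout library was below every WT library, although knockout 3 and WT 2 were close. Its log2 fold change was -0.16 ± 0.11 (SE), with a 95% interval from -0.41 to 0.09 (edgeR unadjusted p = 0.173, adjusted p = 0.864). It kept its sign in all 13 alternatives and ranged from -0.20 to -0.11 among them.

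**Figure D3:**
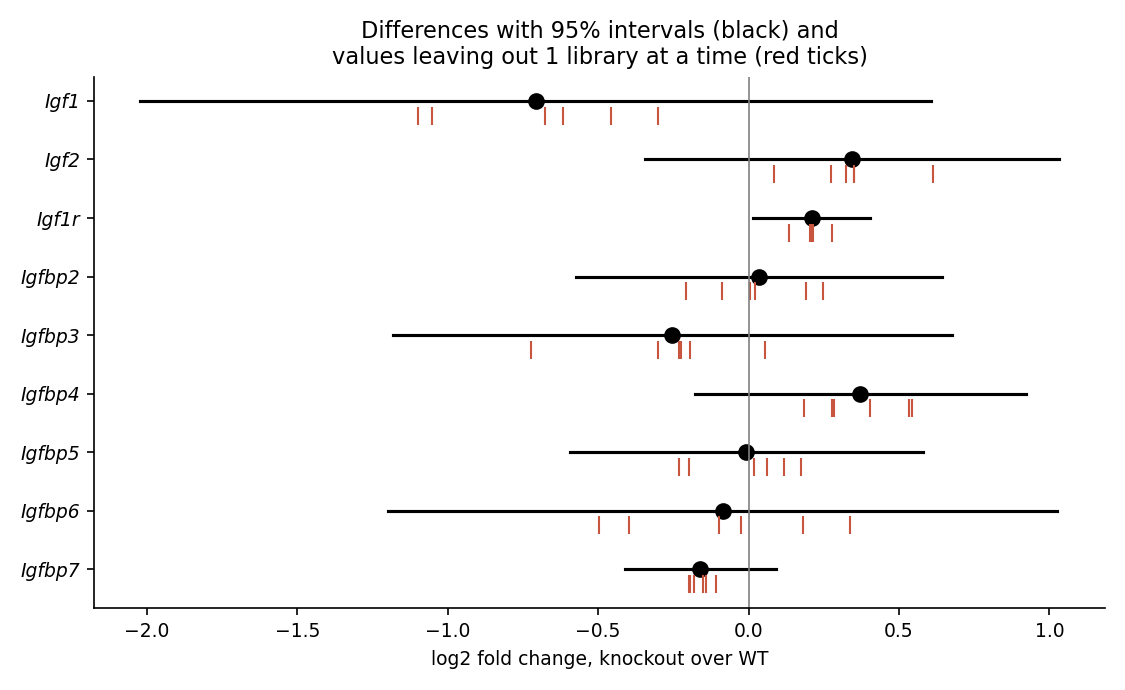
Log2 fold change, knockout over WT, of each family message (black point) with its 95% interval from edgeR (black line), and the values obtained when each of the 6 libraries was left out (red ticks below). Of the 9 intervals, that of Igf1r (0.02 to 0.40) excludes 0 before adjustment; the ticks of Igfbp2, Igfbp3, Igfbp5 and Igfbp6 fall on both sides of 0.

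Other receptors, carriers and proteases of the system were listed as 17 genes, of which 13 were tested. Igfals and Insrr had at most 8 counts in any library and were below the filter, and Igfbp1 and Igfbpl1 were not analysed here. Of the 13, 0 passed the adjusted threshold, and the median log2 fold change was 0.03. Before adjustment, 1 of the 13 had an edgeR p under 0.05, on the lower side. Of all genes, 2.01% were on the lower side at that p and 3.95% on the higher side. The lower gene was Ghr, the growth hormone receptor, through which growth hormone induces Igf1. It had 136, 115 and 119.8 CPM in WT 1, 2 and 3 and 107, 103 and 109 CPM in knockout 1, 2 and 3, so that the groups did not overlap. Its log2 fold change was -0.22 ± 0.08 (SE; edgeR unadjusted p = 0.0241), and it did not pass after adjustment. Per kilobase, Igf1r was above Insr, the insulin receptor with which it can pair, in 6 of 6 libraries (4.31 and 3.47 CPM per kilobase on average). Igf2r, the receptor that clears IGF2, was higher than both at 12.3 ± 1.67. The log2 fold change was 0.19 ± 0.12 for Insr and 0.13 ± 0.13 for Igf2r (SE), and the groups of both genes overlapped.

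Pappa, which encodes the protease that cuts the binding proteins 4 and 5, lay lower in most knockout libraries, with wide spread. It had 9.89, 3.26 and 5.01 CPM in WT 1, 2 and 3 and 4.69, 1.74 and 1.99 CPM in knockout 1, 2 and 3. Knockout 2 and 3 lay below all WT libraries, and knockout 1 lay between WT 2 and WT 3. For Pappa the log2 fold change was -1.12 ± 0.53 (SE), with a 95% interval from -2.40 to 0.17 (edgeR adjusted p = 0.856). It was -0.58 without WT 1 and -1.69 without knockout 1. Stc2, an inhibitor of that protease, had a WT mean of 2.91 ± 1.08 CPM and a knockout mean of 2.95 ± 0.0573 CPM (SD, n = 3 each).

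Igf1, Igfbp5, Igfbp6 and Pappa were highest in the same 3 libraries as most of the adventitial fibroblast markers. The contractile smooth muscle markers that define the labelled cell type were abundant, with Myh11 from 5427 to 8244 CPM in WT and from 7110 to 9458 CPM in the knockout. All 12 adventitial fibroblast markers were also detected. Their summed level was 22370, 13540 and 20330 CPM in WT 1, 2 and 3 and 20780, 10310 and 11800 CPM in knockout 1, 2 and 3, so WT 1, WT 3 and knockout 1 were high and the other libraries low. Igf1 had the same division, with 17.2, 12.8 and 10.1 CPM in the former libraries and 4.25 to 6.72 CPM in the latter. Igfbp5, Igfbp6 and Pappa were likewise highest in WT 1, WT 3 and knockout 1. Of the 12 fibroblast markers 9 had the same 3 highest libraries, among them Pdgfra with 81.0, 34.6 and 59.9 CPM in WT libraries 1, 2 and 3 and 75.3, 25.6 and 27.02 CPM in the knockout libraries. The other 3, Pi16, Gsn and Mfap5, did not, and Mfap5 ran nearly the reverse way, with 121, 144 and 105 CPM in WT libraries 1, 2 and 3 and 104, 147 and 130.3 CPM in the knockout libraries. The sum is carried by the collagen genes and Lum. The 3 libraries used for this count were those where Igf1 was highest, and the share of all genes highest there was not counted. They were also the highest for 0 of 10 contractile, 2 of 8 macrophage and 0 of 9 endothelial markers that passed the filter. The summed level of the 9 osteochondrogenic markers that passed showed the same 3 high libraries, at 5589, 2935 and 5900 CPM in WT 1, 2 and 3 against 7856, 1393 and 1807 CPM in the knockout, mostly from Spp1, and 2 of these 9 genes had the division. The contractile sum was lowest in those libraries, at 26330, 39530 and 33210 CPM in WT 1, 2 and 3 and 31270, 40820 and 38490 CPM in the knockout libraries. Lum and Dcn of that list are also made by modulated smooth muscle. The part of fibroblasts or of modulated smooth muscle in the values of Igf1, Igfbp5, Igfbp6 and Pappa was not tested.

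Of 12 macrophage markers, 8 passed the filter, with summed levels of 33.8, 9.40 and 13.6 CPM in WT 1, 2 and 3 and 34.7, 17.99 and 7.52 CPM in knockout 1, 2 and 3. The markers differed in level. C1qa lay between 0.0736 and 1.42 CPM, and Adgre1, below the filter, had no more than 15 counts in a library. Cd68 ran from 2.31 to 3.46 CPM and Cd14 from 2.32 to 8.78 CPM. Lyz2 was uneven, with 12.6, 0.172 and 0.662 CPM in WT 1, 2 and 3. In knockout 1, 2 and 3 it had 12.6, 5.45 and 0.570 CPM. Igf1 was low in WT 2 and knockout 3, where the macrophage sum was also low. It was low in knockout 2 as well, where that sum lay in the middle of its range. Of the libraries highest for Igf1, WT 1 and knockout 1 had the highest macrophage sums, while WT 3 had 13.6 CPM. The part of macrophages in the Igf1 values was not tested. Of 10 endothelial markers, 9 passed the filter, with summed levels of 96.4 to 99.9 CPM in WT and 94.3 to 109 CPM in the knockout. Most of that came from Pecam1 (52.9 to 63.6 CPM) and Esam (29.2 to 37.1 CPM), while the endothelial cadherin gene Cdh5 did not exceed 0.58 CPM. Of 8 adipocyte markers 2 were analysed here, Fabp4 at 37.3 to 53.1 CPM and Ucp1 with at most 4 counts.

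**Figure D4:**
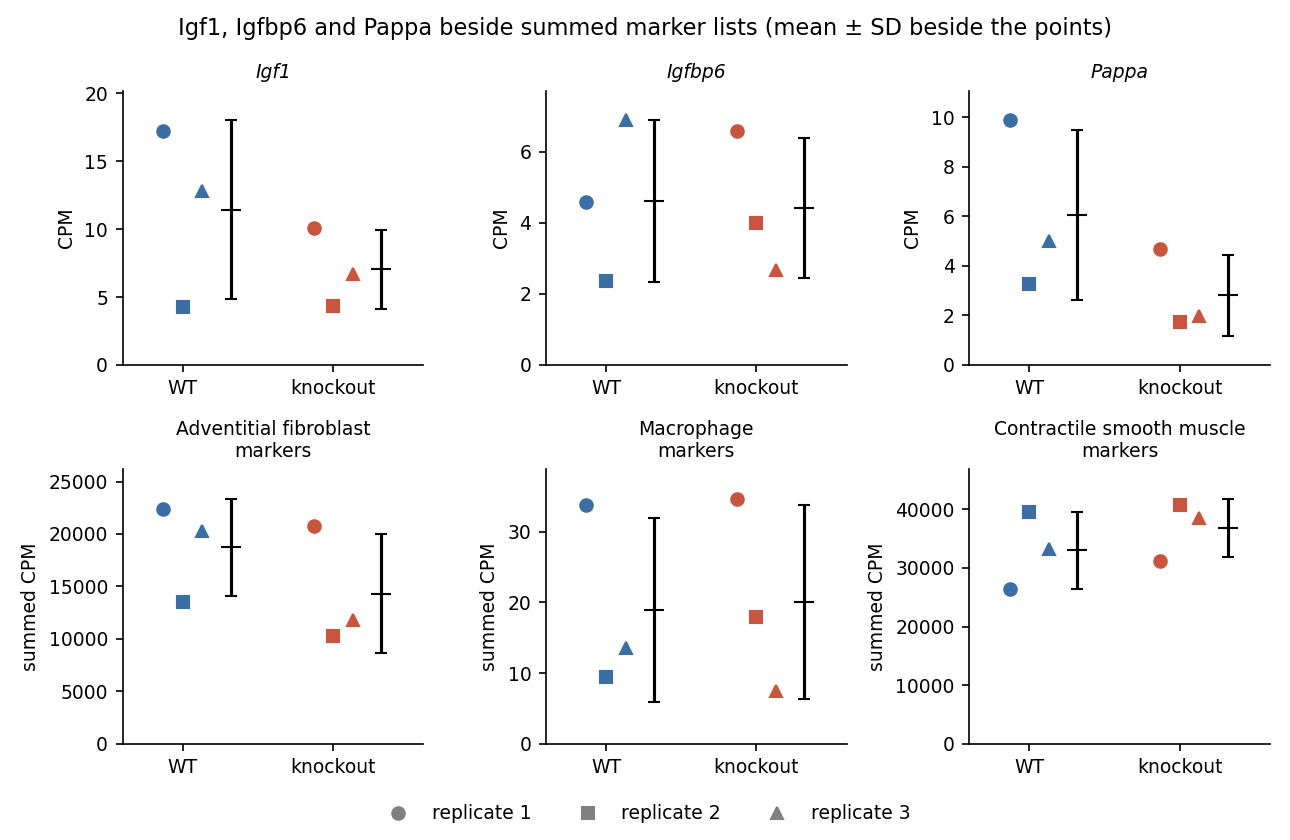
CPM of Igf1, Igfbp6 and Pappa (top) and summed CPM of the adventitial fibroblast, macrophage and contractile smooth muscle marker lists (bottom) in each library, with mean ± SD of 3 libraries in black. WT 1, WT 3 and knockout 1 are the highest 3 libraries for Igf1, Igfbp6, Pappa and the fibroblast list, whose sum there is 20330 CPM or more.

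Of the signalling chain below the receptor, all 29 listed genes were tested and 0 passed after adjustment in edgeR. The log2 fold change was above 0 for 19 of the 29, and before adjustment 7 had an edgeR p under 0.05, all on the higher side. That is 24.1% of the list on the higher side, where 3.95% of all genes were higher at that p. The list was chosen with earlier results of these data known, and this count after seeing the data. The 2 shares are therefore a description and cannot test for an excess. The same 7 genes had every knockout library above every WT library, a pattern found in 6.48% of all genes, and the median log2 fold change of the list was 0.10. They were Mtor, Pdpk1, Rictor and Gab1, named for having the smallest p of the chain, Irs2, which was to be named whatever its value, and Rptor and Tsc1, named after their values were seen. Without knockout 1 the count on the higher side was 8, without knockout 2 it was 3, and without knockout 3 it was 4. The shares over all genes moved too: without knockout 1, 769 genes stood on the higher and 956 on the lower side, in place of 658 and 335, and without knockout 2 the numbers were 414 and 178. Of 6 cardiac muscle markers tested, 4 were also higher at an unadjusted edgeR p under 0.05: Actc1, Myl4, Tnni3 and Ryr2. Tnnt2 and Myh6 had overlapping groups, with log2 fold changes of -0.27 and 0.35, and Myl7 and Nppa were not analysed here. The summed level of the 6 tested markers was 41.1 to 52.6 CPM in WT and 47.8 to 75.2 CPM in the knockout. Knockout 2 was the highest, and Tnnt2 alone had 28.9 CPM there. Whether cardiac muscle cells were present, and their part in the signal chain values, was not tested.

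Irs2 and Gab1 encode docking proteins that carry the signal from the receptor. Irs2 had 206, 212 and 242 CPM in WT 1, 2 and 3 and 245, 417 and 287 CPM in knockout 1, 2 and 3, with WT 3 just under knockout 1. Its log2 fold change was 0.52 ± 0.20 (SE; edgeR adjusted p = 0.830), and without knockout 2, the highest library, it was 0.27. The mean of Gab1 was 59.1 ± 5.33 CPM for WT against 68.8 ± 0.228 CPM for the knockout (SD, n = 3 each). Irs1, the sister gene of Irs2, had means of 17.7 ± 1.76 (WT) and 19.7 ± 0.873 CPM (knockout), with overlapping groups and a log2 fold change of 0.15 ± 0.09 (SE). The receptor adaptor gene Grb10, which damps insulin and IGF signals and is imprinted, had a log2 fold change of -0.12 ± 0.10 (SE). Both Irs1 and Grb10 hold ATAAGCT in the UTR. They are among the 5 of the 29 genes of the chain that do (17.2%, where 7.31% of all UTRs searched do). These shares were not adjusted for UTR length. Of the 7 genes with separated groups, 0 hold it.

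Mtor encodes the kinase at the centre of both mTOR complexes, and Rptor and Rictor encode the scaffolds that tell those complexes apart. Mtor had 38.6, 43.7 and 41.1 CPM in WT 1, 2 and 3 and 51.0, 54.6 and 50.1 CPM in knockout 1, 2 and 3. The highest WT library was below the lowest knockout library. The difference was 0.34 ± 0.07 (log2, SE). Its adjusted p was 0.638 in edgeR and, as the only value under 0.05 in 13 alternative analyses, 0.0408 in DESeq2. The others reached from 0.1001 to 0.9999, all with the same sign. Pdpk1, the kinase that activates Akt, averaged 56.6 ± 1.91 CPM for WT against 66.9 ± 2.25 CPM for the knockout (SD, n = 3 each). Rictor averaged 42.7 ± 0.253 CPM (WT) against 48.3 ± 2.23 CPM (knockout), and Rptor 36.7 ± 1.49 against 41.2 ± 1.77 CPM. Tsc1, a brake on mTOR complex 1, averaged 18.9 ± 1.70 against 22.5 ± 1.96 CPM. Akt1, the kinase between these steps, averaged 262 ± 8.36 against 260.3 ± 2.59 CPM, with overlapping groups, and the 95% interval of its log2 fold change ran from -0.16 to 0.14.

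**Figure D5:**
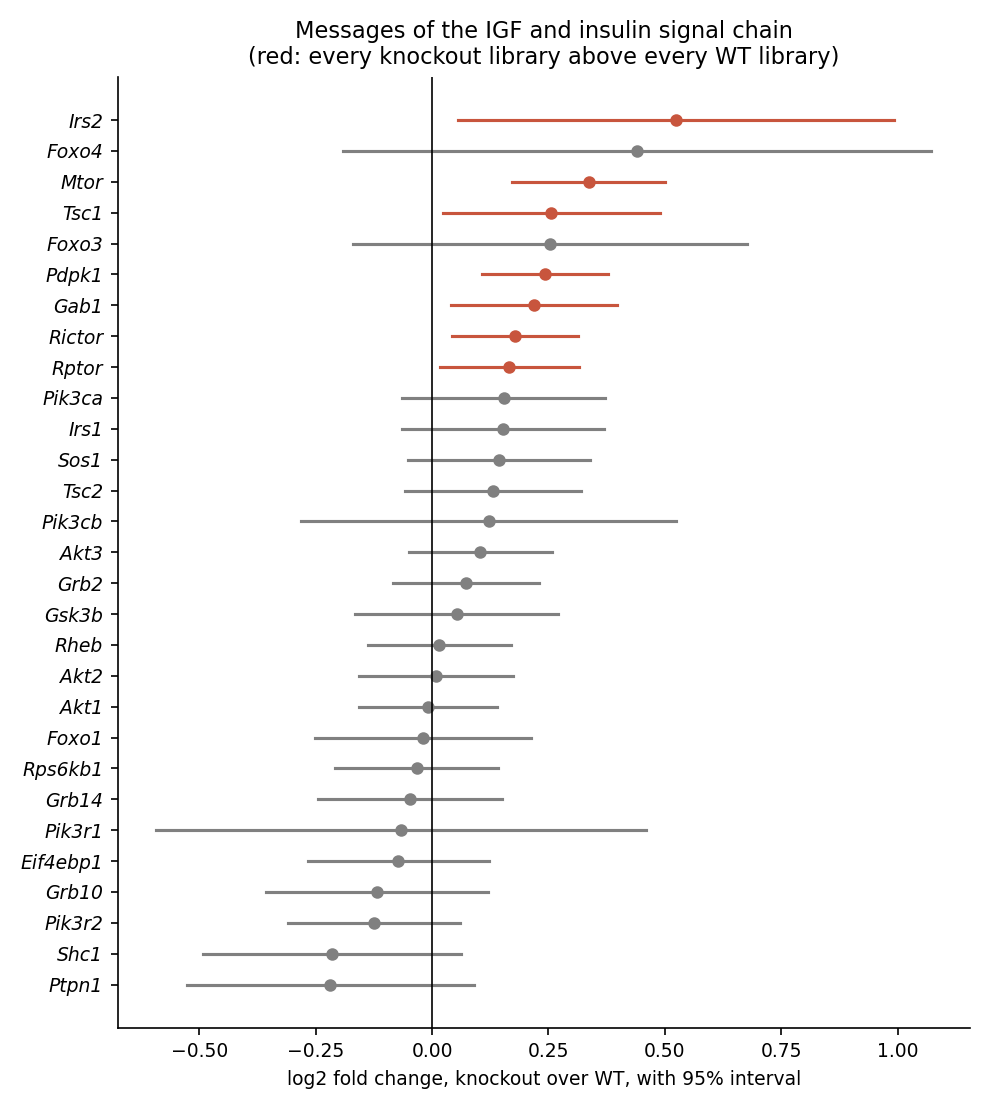
Log2 fold change, knockout over WT, of the 29 messages of the IGF and insulin signal chain with 95% intervals from edgeR, ordered by value. The 7 genes in red had every knockout library above every WT library; none passed the edgeR threshold after adjustment over all genes.

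Igf2, Igf2r and Grb10 are imprinted, and other imprinted growth genes were read beside them. Of 11 listed genes 9 were tested, 0 passed after adjustment, and before it edgeR's p was under 0.05 for 1 gene on the higher and 1 on the lower side, where 3.95% and 2.01% of all genes stood. Their median log2 fold change was 0.05. Peg3, a paternally expressed zinc finger gene, averaged 41.1 ± 2.28 CPM for WT against 48.7 ± 1.23 CPM for the knockout (SD, n = 3 each; log2 fold change 0.25 ± 0.06, SE). Ndn, also expressed from the paternal copy, averaged 19.6 ± 1.71 against 16.2 ± 1.75 CPM (log2 fold change -0.28 ± 0.11, SE). Neither passed (edgeR adjusted p = 0.780 for Peg3 and 0.830 for Ndn), and H19, the neighbour of Igf2, was not analysed here.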

How the data were processed

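The values deposited by the authors are estimated counts, 1 per gene and sample for 6 samples, without normalization. The submitters' processing notes name mm10, STAR 2.6 and DESeq2 but not what each was used for, and neither the counting tool nor the annotation is given in the sources used here. Estimated counts share reads among similar genes and were rounded before testing. Totals ran from 37787465 to 154384307, a ratio of 4.09, and their number sets the precision of the rarest members. Genes were kept by filterByExpr, given TMM factors, then compared by edgeR 4.0.16 (R 4.3.3, quasi-likelihood, robust). The same fit was run on simulated counts whose spread was taken from these data, and its outcome is not reported here. DESeq2 1.42.0 and limma 3.58.1 were alternatives, with other scalings and filters, a replicate block and each library left out. No replicate pair matched within counting noise (chi-square of 31.2 to 109 per gene on average). Per-kilobase levels, UTRs (at least 8 bases, best APPRIS transcript) and coordinates used GENCODE M21, whose gene ends lie 1 base before the deposited ones. Marker and pathway lists and the members were chosen with earlier results of these data known. Named genes were all members, fixed genes of the other lists and up to 4 genes per pathway list, or 2 imprinted genes, by smallest unadjusted p under 0.05. Figures used Python 3.11.15 and matplotlib 3.10.9.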

Additional observations from a re-analysis of the deposited data

How the results depend on the processing

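The number of members called was 0 in all 13 alternatives. Over all genes, DESeq2 called 75, and 1 was called with the replicate block and 1 without knockout 1, so that leaving out libraries gave 0 to 1. The members whose groups did not overlap numbered 2 under every scaling. Upper-quartile scaling, at an unadjusted edgeR p under 0.05, gave 538 genes higher and 415 lower, against 658 and 335. The replicate block gave 1189 and 918, limma-voom 1135 and 801, and leaving out libraries 414 to 798 higher and 178 to 956 lower, with more lower than higher (956 against 769) without knockout 1. No scaling moved the median of all genes by over 0.1. Signs turned for Igfbp2 (-0.21 to 0.25 when leaving out libraries), Igfbp3 (-0.72 to 0.055), Igfbp5 (-0.23 to 0.17), Igfbp6 (-0.50 to 0.34), Stc2 (-0.26 to 0.20) and Akt1 (-0.035 to 0.0020), for Igfbp5 with the replicate block (0.0014) and for Stc2 in limma-voom (-0.14). Same-numbered libraries of the 2 genotypes deviated from their group means with correlations of 0.289, 0.317 and -0.0263 for numbers 1, 2 and 3. Libraries of different number gave -0.351 to 0.117. Numbers 1 and 2 thus deviated together and number 3 did not, and no label says what a number marks. The 3 deviations of a group cancel out for each gene, so these correlations depend on each other and are a description only. The block gave 3 members an unadjusted p under 0.05 in place of 1. No Igfbp3 value was possible with a filter of 1 CPM. The count of signal chain genes was an alternative chosen after seeing the data, and it ran from 3 to 9 higher and 0 to 2 lower. Library counts of 23 to 130 limit Igfbp3.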
